A study of Mus musculus with 34 samples.

Results

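The response of parvalbumin (PV) interneurons to a seizure-inducing drug was read from 7 libraries of 34 in the series, all those of the first batch. In 4 libraries (replicates 1 to 4) the mice had been given pentylenetetrazol (PTZ), a GABA receptor antagonist that excites brain networks widely, and in 3 (replicates 1, 3 and 4) saline. All 7 came from mice of genotype PV:Cre/Ribotag, labelled C57/BL6, at postnatal day 60. In these mice the PvalbCre driver turns on Rpl22-HA, a ribosomal protein with an HA tag, so that ribosome-bound mRNA of Cre-expressing cells can be pulled out of a tissue lysate with anti-HA beads. The libraries therefore report mRNA on tagged ribosomes, plus whatever RNA of other cells came through the pull-down, and no unselected input library is used here. The tissue is given as cortex and hippocampus in the sample labels and as cortices in the extraction text. The dose of PTZ and the time between injection and dissection are not given in the sources used here, and nothing says whether replicates came from separate mice, so p-values measure only the spread between these libraries, which may be technical. Beside these libraries stand somatostatin (SST) interneurons from SstCre/RiboTag mice (3 PTZ, 4 saline, batch 2). Batch 3 adds PV interneurons of the same genotype as above after contextual fear conditioning (3 libraries) or from the home cage (3 libraries). Contextual fear conditioning (CFC) pairs foot shocks with a place. Both sets, also from postnatal day 60, are used only to compare responses. The fits for that purpose also hold 2 PV saline libraries of batch 2 and 3 libraries of PV interneurons with a conditional knockout of Nr4a1 (batch 3).

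PV interneurons are fast-spiking GABAergic cells that hold excitatory neurons in check, and their failure is a classic route to seizures. When a neuron is strongly excited, calcium entry switches on a first wave of genes within minutes through transcription factors that are already present, among them CREB and SRF. Many first-wave genes encode transcription factors themselves (the Fos, Jun, Egr and Nr4a families, Npas4), others encode brakes such as MAP kinase phosphatases and mRNA decay factors, and a delayed wave encodes synaptic and secreted proteins.

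Total counts ran from 12135905 to 20990658 per library, and of the 24371 genes listed, 13598 passed the filter on low counts and were tested. Pairs of libraries had Pearson correlations of log2 CPM (read counts scaled to a common library size) from 0.930 to 0.989 across genes, which are not independent replicates. Some libraries stood apart within their group. Saline 1 was the highest of the saline libraries for 22 of 27 rapid transcription factors, for 19 of 20 excitatory neuron markers and for all 16 astrocyte markers, and PTZ 1 and PTZ 2 had less of several PV-enriched transcripts than PTZ 3 and PTZ 4. Sex is not in the labels used here. Ddx3y, encoded on the Y chromosome, was at 45.1 to 63.7 CPM in PTZ 1, 3 and 4 and saline 4. It was at no more than 0.226 CPM in PTZ 2, saline 1 and saline 3. Xist, a transcript of the X chromosome, was at 763, 309 and 63.5 CPM in PTZ 2, saline 1 and saline 3. It was at 0.182 to 0.788 CPM in PTZ 1, PTZ 3 and saline 4, and at 9.47 CPM in PTZ 4.

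The cell type was checked against its markers. Syt2, a synaptotagmin of fast-spiking terminals, had 583 to 709 CPM in PV saline libraries and 25.2 to 33.5 CPM in SST saline libraries, before TMM scaling. Sst, the peptide of the other class, was at 35.4 to 61.5 CPM in PV saline libraries and at 1739 to 3519 CPM in SST saline libraries. Both genes fit the PV label. Pvalb itself was low for this label in batch 1, with 15.7 to 21.8 CPM in saline libraries. Batches 2 and 3, whose tables were made separately, had 230 to 388 CPM of it after saline (2 PV libraries) and 148 to 181 CPM in the home cage (3 PV libraries). Pvalb in the PTZ libraries of batch 1 stood at 44.0 to 133 CPM on the same scale.

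A small set of first-wave genes was higher by a large factor in the PV libraries after PTZ. Npas4, Fosb, Fos and Btg2 rose 10.7-fold to 27.9-fold, and edgeR called no gene lower. None of these calls remained with a term for sex, or without any one of saline 4, PTZ 2, PTZ 3 and PTZ 4. The part of other cells' RNA in these values was not tested. These 4 genes were 0.0294% of the 13598 tested (edgeR's quasi-likelihood test, Benjamini-Hochberg adjusted p under 0.05, on CPM scaled by TMM), and the share called lower was 0%. In the counts of gene lists below, rose and fell mean called by this test. At an unadjusted p under 0.05, 1247 genes were higher and 628 lower, 9.17% and 4.62% of the genes tested, where 679.9 in both directions together would be expected with no difference. Single libraries moved this total of 1875, which was 913 without saline 3, 994 without PTZ 2, 1155 without saline 4 and 2536 without PTZ 4. Every PTZ library lay above every saline library for 1028 genes (7.56%) and below every one for 848 (6.24%).

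**Figure D1:**
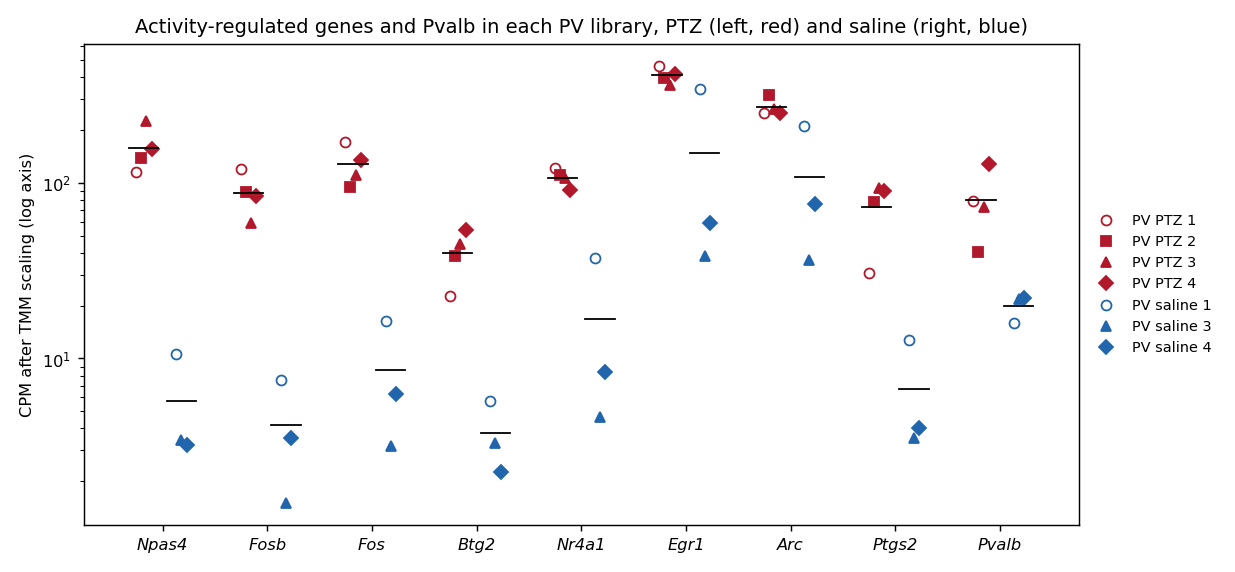
CPM after TMM scaling (log axis) of 8 activity-regulated genes and Pvalb in each PV library, with 4 PTZ libraries at the left of each gene and 3 saline libraries at the right; bars are group means. For Npas4, Fosb, Fos and Btg2 all PTZ points lie well above all saline points, while for Egr1 and Arc saline 1 (342 and 210 CPM) lies close to the PTZ libraries.

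Npas4, a neuron-specific transcription factor that responds to calcium entry, had 115, 138, 223 and 155 CPM in PTZ libraries 1 to 4, against 10.6, 3.42 and 3.22 CPM in saline libraries 1, 3 and 4. Its log2 fold change was 4.80 ± 0.48 (SE; edgeR adjusted p = 0.0131). The groups were far apart, and within saline the first library was the high one. Fosb, a partner of Jun proteins in the AP-1 factor, had 120, 88.2, 59.2 and 83.7 CPM in PTZ libraries and 7.52, 1.51 and 3.53 CPM in saline libraries, a log2 fold change of 4.42 ± 0.50 (edgeR adjusted p = 0.0200). Fos, the other AP-1 member of this set, had 171, 94.5, 110 and 134 CPM in PTZ libraries and 16.3, 3.19 and 6.26 CPM in saline libraries (log2 3.91 ± 0.51, edgeR adjusted p = 0.0395). For both Fos genes the groups did not overlap and saline 1 was again the high control. Btg2, an antiproliferative protein that recruits mRNA deadenylases, had 22.7, 38.1, 44.9 and 53.6 CPM in PTZ libraries and 5.77, 3.30 and 2.25 CPM in saline libraries (log2 3.41 ± 0.40, edgeR adjusted p = 0.0200). Here PTZ 1 was the lowest of the treated libraries, still above every control.

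The promoters of these 4 genes are shown because they share the core of the cAMP response element, TGACG or CGTCA on the other strand, the site known for CREB binding. RefSeq places the genes, on build GRCm38.p6, at chr19:4984353-5003439 (Npas4), chr7:19302696-19310118 (Fosb), chr1:134074865-134079155 (Btg2) and chr12:85473890-85477274 (Fos). The stretches below are read 5′ to 3′ on the strand of the gene, from RefSeq promoters of that build, and end between 3 and 140 bases before the annotated start used. Capitals mark TGACG or CGTCA, the full palindrome TGACGTCA in Btg2, and the TATA box letters TATAAA in Fos.
Npas4 (chr19:4990111-4990175, minus strand): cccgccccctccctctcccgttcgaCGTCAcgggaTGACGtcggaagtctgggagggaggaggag
Fosb (chr7:19310076-19310130, minus strand): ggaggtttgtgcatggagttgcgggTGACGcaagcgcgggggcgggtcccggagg
Btg2 (chr1:134079289-134079346, minus strand): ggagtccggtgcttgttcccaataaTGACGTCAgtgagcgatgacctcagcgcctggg
Fos (chr12:85473736-85473887, plus strand): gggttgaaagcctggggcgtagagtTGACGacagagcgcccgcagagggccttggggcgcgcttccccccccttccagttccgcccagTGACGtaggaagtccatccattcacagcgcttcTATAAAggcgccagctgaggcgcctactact

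The core began 179 and 169 bases before the start in Npas4, 60 bases before it in Fosb, 166 in Btg2, and 129 and 66 in Fos, whose TATAAA began 33 bases before the start. The Npas4 stretch and most of the Fosb stretch lie inside the annotated gene spans, which reach beyond the start used. Searched on both strands in the 250 bases before the start, TGACG was present in 4 of the 4 called genes, in 16 of 20 rapid transcription factors with a promoter in the table (80%), in 11 of 27 rapid effectors (40.7%) and in 12 of 30 delayed genes (40%). It was present in 3133 of 10285 promoters of all genes tested (30.5%) and in 5 of 16 of PV markers (31.2%). Outside the activity lists it ran from 1 of 17 GABA genes (5.88%) to 8 of 10 neuropeptide genes (80%), with 27 of 60 ribosomal proteins (45%). The neuropeptide list had a median log2 fold change of 0.04, so a high share was not particular to lists with positive values. The full TGACGTCA, which also contains the core, was in 6 of 27 rapid effectors (22.2%), in 1 of 20 rapid transcription factors (5%) and in 3.08% of all promoters. Of neuropeptide genes 2 of 10 had it (20%). The CArG box of SRF was in 2 of 20 rapid transcription factors (10%), 2 of 27 rapid effectors (7.41%) and 0 of 30 delayed genes. It was in 1.41% of all promoters and in 1 of 13 oligodendrocyte lineage genes (7.69%). TGANTCA, the AP-1 site, was in 1 of 20 rapid transcription factors (5%) and in 5.24% of all promoters. Of the 4 called genes, 0 had the CArG box and 0 had TGANTCA. A match describes letters in a window and is not evidence of binding.

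Among the first-wave transcription factors the whole list had positive values. Of 27 members, all tested, 3 rose (Npas4, Fosb and Fos), 21 were higher at an unadjusted p under 0.05, and in 16 the groups did not overlap. The median log2 fold change was 1.81, against -0.01 over all genes. Over all genes 9.17% were higher and 4.62% lower at that p, and the groups were apart in 7.56% higher and 6.24% lower. These shares are the background for the counts of every list below. The zinc finger and nuclear receptor members did not pass the edgeR test in spite of large values, and the saline replicates differed widely for them. Nr4a1, an orphan nuclear receptor, had 121, 110, 106 and 90.6 CPM in PTZ libraries and 37.3, 4.63 and 8.33 CPM in saline libraries (log2 2.69 ± 0.59, edgeR adjusted p = 0.239). The groups did not overlap, the PTZ libraries lay close together, and saline 1 stood far above the other controls. Without saline 1 the Nr4a1 value was 4.04 ± 0.32 (edgeR adjusted p = 0.000691). Egr1, a zinc finger factor, had 461, 393, 360 and 416 CPM in PTZ libraries and 342, 38.2 and 59.1 CPM in saline libraries (log2 1.48, edgeR adjusted p = 0.347). Saline 1 was nearly as high as the treated libraries. Egr2 had 29.2, 45.1, 18 and 25 CPM after PTZ and 13.5, 2.03 and 1.76 CPM after saline, and Egr4 had 25.2, 27.0, 15.3 and 24.7 CPM after PTZ and 12.0, 1.74 and 3.22 CPM after saline. Both repeated the pattern of Egr1, with one high control. Egr3, with 263, 259, 119 and 144 CPM after PTZ and 150, 33.4 and 33.4 CPM after saline, was the member of the family whose groups overlapped.

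Other members varied in size. Junb, an AP-1 subunit, had 9.48, 12.5, 9.94 and 11.5 CPM in PTZ libraries and 3.34, 0.869 and 1.22 CPM in saline libraries (log2 2.62 ± 0.44, edgeR adjusted p = 0.159), and its groups were apart. Jun, the partner it can replace, was already abundant in controls, with 37.5, 42.0, 38.7 and 47.9 CPM after PTZ and 26.6, 20.0 and 26.2 CPM after saline (log2 0.77). Atf3, a stress-induced factor of the CREB family, had 2.35, 2.49, 3.27 and 3.13 CPM in PTZ libraries and 0.501, 0 and 0 CPM in saline libraries, so that its log2 value of 4.23 (edgeR adjusted p = 0.240) rests on very few control reads. Nr4a2 had 79.0, 89.5, 35.2 and 46.6 CPM after PTZ and 32.8, 10.5 and 10.5 CPM after saline (log2 1.81). Nr4a2 was thus higher in PTZ 1 and 2 than in PTZ 3 and 4, and this order also held for Egr3, Fosl2, Klf4 and Csrnp1. Nr4a3, with 8.31, 13.6, 3.76 and 9.61 CPM after PTZ and 8.11, 0.637 and 1.58 CPM after saline, overlapped between groups. Myc (log2 0.16), Bhlhe40 (0.41) and Klf6 (0.55) were at the small end of the list. Without PTZ 1 and PTZ 2, an alternative chosen after the data were seen, 24 of the 27 values were positive, 15 were higher at an unadjusted p under 0.05, 0 were called, and the median was 1.20.

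Leaving out saline 1 gave 14 genes higher of 13932 tested (0.100%, edgeR), and all 14 belonged to the 3 activity lists: Npas4, Fos, Fosb, Nr4a1, Egr1, Egr2, Egr3, Egr4, Junb, Atf3, Btg2, Arc, Dusp6 and Ptgs2. Leaving out PTZ 1 gave 7 of 13464 (0.0520%), the 4 genes above with Ptgs2, Col4a2 and Nckap1l. Leaving out saline 4 or any one of PTZ 2, PTZ 3 and PTZ 4 gave 0 calls, and leaving out saline 3 gave 2, Fosb and Npas4. The 4 fold changes stayed large throughout, with log2 ranges over single libraries left out of 4.52 to 5.56 for Npas4, 4.00 to 5.12 for Fosb, 3.50 to 4.75 for Fos and 3.16 to 3.83 for Btg2. The calls also did not pass with a term for sex, read from whether Ddx3y exceeded Xist (edgeR adjusted p = 0.0526 for Npas4, 0.0593 for Fosb and Btg2, and 0.149 for Fos).

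The first-wave effectors and feedback genes had smaller values. Of 33 tested, of 34 listed, 1 rose (Btg2) and 0 fell, 18 were higher at an unadjusted p under 0.05, the groups did not overlap in 16, and the median log2 value was 1.01. Dusp6, the cytoplasmic phosphatase of ERK, had 58.9, 70.8, 43.7 and 37.5 CPM in PTZ libraries and 26.6, 9.56 and 10.6 CPM in saline libraries (log2 1.77, edgeR adjusted p = 0.239). Dusp1, a nuclear MAP kinase phosphatase, had 215, 111, 146 and 153 CPM after PTZ and 80.6, 81.9 and 71.2 CPM after saline (log2 1.01 ± 0.23). Its controls were even, unlike those of Dusp6. Ppp1r15a, which helps to restart translation by removing phosphate from eIF2alpha, had 10.1, 13.0, 11.3 and 9.97 CPM in PTZ libraries and 4.51, 3.82 and 4.20 CPM in saline libraries (log2 1.41 ± 0.25, edgeR adjusted p = 0.159). Both of its groups were tight and clearly apart. Plk2, a kinase that weakens overexcited synapses, had 171, 215, 267 and 168 CPM after PTZ and 121, 66.3 and 82.7 CPM after saline (log2 1.19). Arc, which drives removal of AMPA receptors from synapses, had 248, 314, 261 and 250 CPM in PTZ libraries and 210, 36.1 and 75.2 CPM in saline libraries (log2 1.33 ± 0.47, edgeR adjusted p = 0.321). As for Egr1, 1 control library was close to the treated ones. Per1, a clock gene that is also induced through CREB, had 285, 378, 114 and 113 CPM after PTZ and 95.8, 74.7 and 79.4 CPM after saline (log2 1.42), so that PTZ 3 and PTZ 4 were only just above the controls. Cyr61, a secreted matricellular protein, had 2.39, 10.2, 7.39 and 9.61 CPM after PTZ and 1.84, 0.0579 and 0.365 CPM after saline. Spry4, Amigo3 and Fbxo33 were the 3 tested members with negative values (log2 -0.23, -0.31 and -0.08). Without PTZ 1 and PTZ 2 the list had a median of 0.51, 15 higher at an unadjusted p under 0.05, and 0 calls.

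Delayed activity-regulated genes were mixed. Of 41 tested, of 44 listed, 0 rose and 0 fell, 11 were higher and 1 lower at an unadjusted p under 0.05, the groups were apart in 4 higher and 1 lower, and the median log2 value was 0.59. The 11 ran from 4 without saline 3 or saline 4 to 19 without saline 1. Over all genes tested, the groups were apart in 7.56% higher and 6.24% lower. Ptgs2, the inducible cyclooxygenase that makes prostaglandins, had 30.8, 78.0, 93.8 and 89.8 CPM in PTZ libraries and 12.7, 3.53 and 4.01 CPM in saline libraries (log2 3.46 ± 0.54, edgeR adjusted p = 0.131). PTZ 1 and saline 1 were the pair that brought its groups closest. Baz1a, a chromatin remodelling subunit, had 18.4, 25.1, 23.5 and 20.2 CPM after PTZ and 10.0, 7.07 and 8.58 CPM after saline (log2 1.35, edgeR adjusted p = 0.159), with groups apart. Bdnf, a neurotrophin best known from excitatory neurons, had 8.78, 15.4, 10.3 and 14.4 CPM after PTZ and 10.5, 1.97 and 3.28 CPM after saline (log2 1.23). Its saline 1 value lay inside the PTZ range. Rgs4, a brake on G protein signalling, had 496, 443, 324 and 289 CPM after PTZ and 268, 190 and 192 CPM after saline (log2 0.84, edgeR adjusted p = 0.297). Homer1, with 278, 304, 168 and 152 CPM after PTZ and 257, 116 and 125 CPM after saline, overlapped. The secretory granule proteins Vgf and Scg2, listed here for their induction by activity in other neurons, had negative values (log2 -1.07 and -0.95) with groups that overlapped. With 1 library left out the list's median ran from 0.34 (without PTZ 2) to 0.88 (without saline 1), and it was 0.24 without PTZ 1 and PTZ 2.

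**Figure D2:**
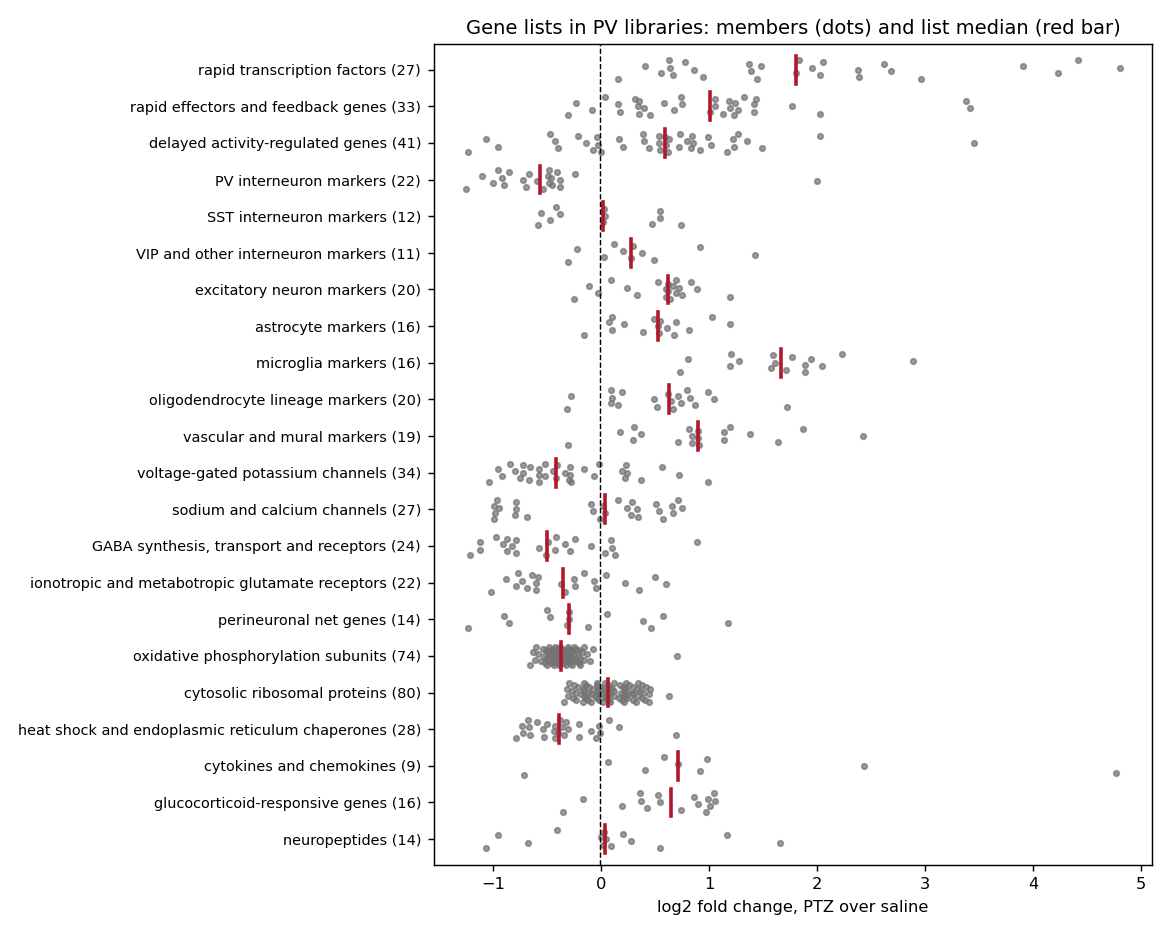
Log2 fold changes, PTZ over saline, of the tested members of 22 gene lists in PV libraries (dots), with the list median (red bar) and the number tested in parentheses. The dashed line marks the median over all genes tested (-0.01). Rapid transcription factors (median 1.81) and microglia markers (1.66) lie farthest to the right, and PV interneuron markers (-0.56) farthest to the left, except Pvalb at 2.00.

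The genes that mark PV interneurons lay on the other side, except Pvalb. Of 22 members 0 rose and 0 fell by the edgeR test, 21 had negative values, 7 were lower and 1 higher at an unadjusted p under 0.05, the groups were apart in 9 lower and 1 higher, and the median log2 value was -0.56. The 7 became 0 without saline 3, 2 without saline 4 or PTZ 1, 4 without PTZ 2 and 10 without PTZ 4. Syt2 had 115, 120, 435 and 421 CPM in PTZ libraries and 592, 762 and 592 CPM in saline libraries (log2 -1.25 ± 0.46, edgeR adjusted p = 0.324). The lower level was mostly that of PTZ 1 and PTZ 2, while PTZ 3 and PTZ 4 were below the controls by a smaller margin. Kcnc1, the Kv3.1 channel that lets these cells repolarize fast, had 379, 314, 772 and 866 CPM after PTZ and 991, 1270 and 1037 CPM after saline (log2 -0.92). Erbb4, the neuregulin receptor of interneurons, had 124, 99.7, 339 and 297 CPM after PTZ and 462, 537 and 386 CPM after saline (log2 -1.10). The same pair of PTZ libraries was low in all 3 genes. Without PTZ 1 and PTZ 2, 21 of 22 markers were negative, with a median of -0.36, and 2 were lower at an unadjusted p under 0.05; without PTZ 2 alone the median was -0.37. In bulk libraries such as these, fewer cells of a type and less RNA per cell cannot be told apart.

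Pvalb, the calcium-binding protein that names the class (chr15:78191112-78206400, GRCm38.p6), had 78.9, 40.3, 72.7 and 128 CPM in PTZ libraries and 15.9, 21.9 and 22.1 CPM in saline libraries. Every PTZ library was above every control, and PTZ 2 was the lowest of the 4. Its log2 fold change was 2.00 ± 0.35, which missed the threshold (edgeR adjusted p = 0.159). Lhx6, the transcription factor that PV and SST interneurons share, had 224, 54.2, 191 and 109 CPM after PTZ and 150, 253 and 193 CPM after saline and overlapped. Sst, a marker of the other class, had 49.0, 44.5, 30.2 and 74.4 CPM after PTZ and 62.3, 38.0 and 45.3 CPM after saline (log2 0.03). Of the 12 SST markers tested, of 16 listed, 7 were positive, and the median was 0.02 (-0.28 without PTZ 4). Of these 12, 1 was higher at an unadjusted p under 0.05, close to the share of 9.17% over all genes tested. Of 11 markers of VIP and other interneurons tested, of 14 listed, 9 were positive, with a median of 0.28 that ran from 0.03 without PTZ 2 to 0.63 without saline 1, and 0 reached an unadjusted p under 0.05.

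Voltage-gated potassium channels, which shape the fast firing of PV cells, had a negative median, and sodium and calcium channels did not. None of the 34 voltage-gated potassium channels passed the edgeR test; 26 were negative, 8 were lower and 1 higher at an unadjusted p under 0.05, and the median was -0.41. The 8 became 2 without PTZ 1 and 12 without PTZ 3 or without PTZ 4. Over all genes tested 4.62% were lower and 9.17% higher at that p. Of the 34, 4 are also among the PV markers, Kcna1, Kcna2, Kcnc1 and Kcnc2. Kcna1, the Kv1.1 subunit of axons, had 885, 622, 1549 and 1374 CPM in PTZ libraries and 1607, 2147 and 1722 CPM in saline libraries (log2 -0.72). Every PTZ library was below every control, with PTZ 1 and PTZ 2 lowest. Kcna6 spread less between PTZ libraries, with 55.7, 70.4, 83.4 and 71.5 CPM after PTZ and 134, 111 and 88.1 CPM after saline (log2 -0.66). Kcnh4, an ether-a-go-go channel, ran the other way, with 12.1, 21.7, 18.3 and 11.3 CPM after PTZ and 10.3, 7.01 and 6.75 CPM after saline (log2 0.99). Among 27 sodium, calcium and HCN channels 15 were positive and 12 negative, with a median of 0.04 (-0.02 without PTZ 2, 0.22 without PTZ 1), and 0 passed the edgeR test. At an unadjusted p under 0.05, 7 were lower and 4 higher, and the groups were apart in 5 lower and 2 higher. The 7 ran from 3 without saline 3 to 8 without PTZ 4, and the 4 from 0 without PTZ 2 to 7 without PTZ 1. Scn1a, the sodium channel whose loss in interneurons causes Dravet syndrome, had 333, 420, 925 and 950 CPM in PTZ libraries and 1419, 1386 and 1051 CPM in saline libraries (log2 -0.97). The beta subunit gene Scn2b (log2 -0.80) was also lower without overlap, as was Hcn2 (-0.99), a pacemaker channel. Scn3a and Cacna1d had positive values (0.71 and 0.75) with groups that overlapped.

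GABA and glutamate genes had negative medians too. Of 24 genes of GABA synthesis, transport and reception 0 passed the edgeR test, 19 were negative, 8 were lower and 0 higher at an unadjusted p under 0.05, and the median was -0.50. With 1 library left out the 8 ran from 2 (without saline 3 or PTZ 2) to 11 (without PTZ 4). Gad1, which makes GABA, had 3086, 1053, 2967 and 2214 CPM in PTZ libraries and 1944, 3480 and 2853 CPM in saline libraries, and these ranges overlapped. Nlgn2, an adhesion protein of inhibitory synapses, had 74.0, 108, 140 and 156 CPM after PTZ and 230, 209 and 177 CPM after saline (log2 -0.78). Nlgn2 was below every control in all 4 PTZ libraries, which Gad1 was not. Of 22 glutamate receptor genes 17 were negative (median -0.35, or -0.11 without PTZ 1) and 0 passed the edgeR test. Grin2d, an NMDA receptor subunit of interneurons, had 4.98, 4.58, 9.88 and 12.8 CPM after PTZ and 15.8, 16.3 and 16.7 CPM after saline (log2 -1.02), and its controls were tight. Of 14 perineuronal net genes tested, of 18 listed, 9 were negative (median -0.30, or 0.12 without saline 1), and 0 passed the edgeR test. Acan, the aggrecan core of the nets around PV cells, had 4.79, 9.90, 16.1 and 21.4 CPM after PTZ and 42.7, 26.2 and 22.9 CPM after saline (log2 -1.23, edgeR adjusted p = 0.312). PTZ 4 was only just below saline 4. Without PTZ 1 and PTZ 2 the GABA list had a median of -0.24 with 2 lower at an unadjusted p under 0.05, and the potassium channels -0.26 with 2 lower.

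**Figure D3:**
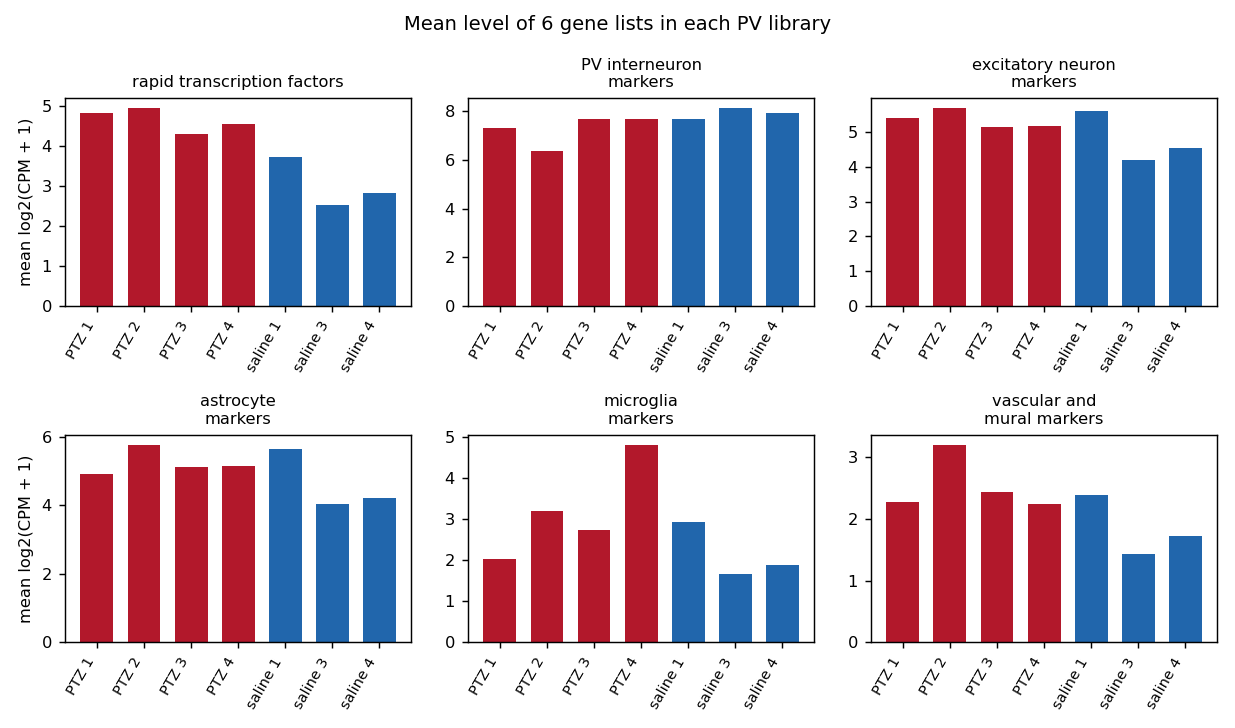
Mean log2(CPM + 1) of 6 gene lists in each PV library, 4 PTZ libraries (red, left) and 3 saline libraries (blue, right). The rapid transcription factors are above every control in all PTZ libraries, PTZ 2 is low for PV markers (6.37), PTZ 4 is high for microglia markers (4.83) and saline 1 is high for astrocyte markers (5.65).

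Markers of other cells moved with the groups and with single libraries. All 16 microglia markers had positive values (median 1.66), 5 of them at an unadjusted p under 0.05 (0 without PTZ 4 or saline 3, 1 without saline 4, 13 without saline 1 or PTZ 1), and 0 passed the edgeR test. Their mean log2(CPM + 1) was 2.04, 3.20, 2.73 and 4.83 in PTZ libraries and 2.94, 1.68 and 1.90 in saline libraries, so the groups overlapped. PTZ 4 was the highest PTZ library for all 16, and without it the median was 0.54. C1qb, a complement subunit made by microglia, had 12.4, 18.1, 8.73 and 53.8 CPM after PTZ and 11.3, 2.32 and 3.53 CPM after saline. Astrocyte markers (15 of 16 positive, median 0.53), oligodendrocyte lineage markers (18 of 20, median 0.63), excitatory neuron markers (17 of 20, median 0.62) and vascular and mural markers (18 of 19 tested, median 0.89) were also positive. None of these markers passed the edgeR test. Slc17a7, the glutamate transporter of cortical excitatory neurons, had 104, 187, 104 and 116 CPM after PTZ and 247, 56.1 and 56.4 CPM after saline. Saline 1 was the highest library of all for it, and without saline 1 the medians were 1.21 for excitatory, 1.29 for astrocyte, 1.25 for oligodendrocyte lineage and 1.48 for vascular markers. Without saline 3 they were 0.28, 0.20 and 0.38 for the first 3 of these lists, and without PTZ 2 the vascular median was 0.55. The mean log2(CPM + 1) of excitatory markers was 5.41, 5.70, 5.13 and 5.18 in PTZ libraries and 5.61, 4.20 and 4.53 in saline libraries. The part of these cells' RNA in the values of the activity genes was not tested.

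In some non-neuronal genes every PTZ library was above every control. Col4a2, a basement membrane collagen of vessels, had 28.5, 56.5, 64.4 and 36.6 CPM in PTZ libraries and 13.2, 13.1 and 11.9 CPM in saline libraries (log2 1.87 ± 0.30, edgeR adjusted p = 0.131). Col4a1, which pairs with it and is transcribed from the same region in the opposite direction, had 19.2, 31.4, 30.3 and 20.1 CPM after PTZ and 5.68, 7.99 and 10.6 CPM after saline (log2 1.63, edgeR adjusted p = 0.159). The Col4a2 controls were even, saline 1 included, while saline 1 was the lowest control for Col4a1. Olig2, a transcription factor of the oligodendrocyte lineage, had 14.8, 23.6, 15.8 and 11.3 CPM after PTZ and 6.10, 5.21 and 3.59 CPM after saline (log2 1.72, edgeR adjusted p = 0.176). Olig2 was the 1 gene of the 20 oligodendrocyte lineage markers whose groups did not overlap, a share below the 7.56% of all genes tested. The same count was 1 of 16 microglia markers, 0 of 16 astrocyte markers and 4 of 19 vascular and mural markers. Mobp, a myelin gene, had 69.0, 144, 55.6 and 59.3 CPM after PTZ and 70.9, 18.1 and 30.9 CPM after saline. Il1a, a cytokine, had 0.657, 1.58, 3.21 and 2.78 CPM after PTZ and 0.167, 0 and 0.0608 CPM after saline, with a log2 value of 4.77 that rests on very few control reads (edgeR adjusted p = 0.178). It was 1 of 9 cytokines and chemokines tested, of 23 listed, whose median was 0.71 (0.26 without PTZ 2, 1.42 without saline 1), with 8 of 9 positive and 2 higher at an unadjusted p under 0.05 (6 without saline 1).

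Housekeeping and stress lists had small values. Of 74 subunits of oxidative phosphorylation 73 were negative, but by a small amount (median -0.38, with -0.62 without PTZ 4 and -0.23 without PTZ 3; lowest -0.66 for Ndufa9), 2 were lower at an unadjusted p under 0.05, and 0 passed the edgeR test. The count of 2 was 30 without PTZ 4, 9 without saline 1, 4 without PTZ 1 and 0 without saline 3. Of 80 cytosolic ribosomal proteins 47 were positive, with a median of 0.07 (-0.14 without PTZ 4) and 0 at an unadjusted p under 0.05 in either direction. Rpl22, whose tagged copy is the bait, had 18.2, 24.0, 19.5 and 33.7 CPM in PTZ libraries and 23.8, 22.7 and 30.9 CPM in saline libraries. Of 28 chaperones 25 were negative, and 1 was lower at an unadjusted p under 0.05. Their median was -0.39, with -0.26 without saline 1 and -0.57 without PTZ 4, which left 10 of 27 lower at that p. With all libraries 4.62% of all genes tested were lower at that p, a larger share than among these subunits or chaperones. The count of groups apart read otherwise for chaperones, with 5 of 28 lower against 6.24% of all genes. It was 2 of 74 lower for the subunits, below that share. Glucocorticoid-responsive genes, a readout of stress hormone, were positive in 14 of 16 (median 0.64), 3 of them at an unadjusted p under 0.05, or 7 without saline 1, 6 without PTZ 3 and 5 without PTZ 1. Sgk1, a kinase induced by these hormones, had 126, 154, 117 and 123 CPM after PTZ and 70.5, 63.3 and 81.5 CPM after saline (log2 0.86 ± 0.18, edgeR adjusted p = 0.239), and its groups did not overlap. Fkbp5 (log2 0.36) and Tsc22d3 (-0.17), 2 of the most used glucocorticoid markers, had smaller values. The 14 neuropeptide genes tested, of 17 listed, had a median of 0.04 (0.45 without saline 1) and 0 at an unadjusted p under 0.05, where 4 were higher without saline 1 and 3 lower without PTZ 4.

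The number of genes called depended on the tool. DESeq2 called 207 higher and 4 lower of 13210 with an adjusted p, 1.57% and 0.0303%, while limma voom called 4 higher and 0 lower, the same 4 as edgeR. Of the 207, 26 were in the 3 activity lists, 174 were in no list, and for 197 every PTZ library was above every control. DESeq2 called 12 of 27 rapid transcription factors, 12 of 33 rapid effectors and 2 of 41 delayed genes, shares above 1.57% for each list. Such a share was not particular to the activity lists. It called 3 of 19 vascular and mural markers, 1 of 9 cytokines and chemokines and 1 of 16 glucocorticoid-responsive genes. It also called 1 of 20 oligodendrocyte lineage markers and, of 22 PV markers, only Pvalb. The other lists had no member called. The 4 genes it called lower were BC002163, Ndn, Tspan5 and Stk32c. Ndn, the necdin gene of postmitotic neurons, had 38.1, 25.2, 69.2 and 39.0 CPM in PTZ libraries and 76.7, 105 and 114 CPM in saline libraries (log2 -1.20; DESeq2 adjusted p = 0.0294, edgeR adjusted p = 0.267). PTZ 3 was closest to the controls and did not reach them.

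The response to PTZ was then set against that of SST interneurons, with the 2 cell types in separate batches and each against its own saline libraries. The 4 genes called in PV cells had positive values in both. The log2 response was 4.84 in PV cells and 4.10 in SST cells for Npas4 (difference 0.74 ± 0.56), 4.45 and 5.39 for Fosb (-0.93 ± 0.52), 3.94 and 3.76 for Fos (0.18 ± 0.63), and 3.45 and 2.85 for Btg2 (0.60 ± 0.61). The test of the difference called 0 of 11743 genes (0%, edgeR), with 602 at an unadjusted p under 0.05 where 587.15 would be expected. That count of 602 depended on single libraries: it was 1258 without PTZ 4, 1094 without saline 1, 377 without saline 3 and 347 without PTZ 2 of the PV cells, and 371 and 354 without PTZ 1 and PTZ 3 of the SST cells. Of 24 rapid transcription factors tested in both cell types, 23 had positive values in both, with medians of 1.49 in PV cells and 1.19 in SST cells; the 31 rapid effectors had medians of 0.78 and 0.42. Dusp1 had a response of 1.03 in PV cells and 2.47 in SST cells (difference -1.44 ± 0.37, edgeR adjusted p = 0.820). Pvalb differed by 2.86 ± 0.46 (edgeR adjusted p = 0.112), with responses of 2.03 in PV cells and -0.83 in SST cells, where it had only 4.11 to 5.61 CPM after PTZ and 6.40 to 12.7 CPM after saline. Without PTZ 2 of the PV cells, Pvalb was the 1 gene called. A missed threshold does not show that both cell types respond alike, since batch and cell type cannot be told apart here.

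**Figure D4:**
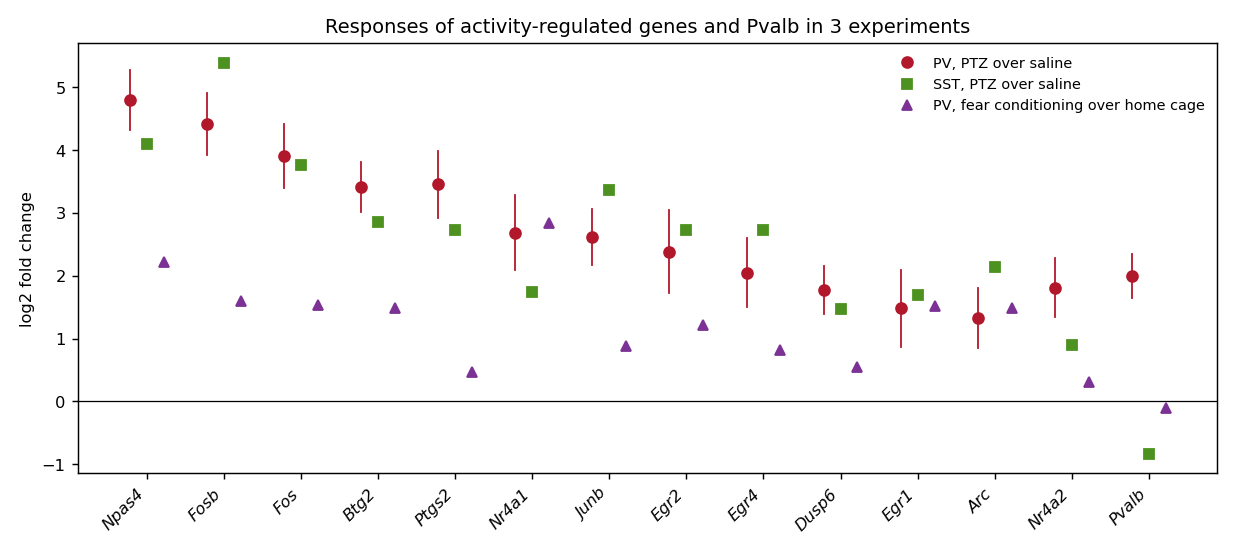
Log2 fold changes of 13 activity-regulated genes and Pvalb after PTZ in PV cells (red circles, bars ± SE of the PTZ-against-saline test), after PTZ in SST cells (green squares) and after fear conditioning in PV cells (purple triangles), each over its own control libraries. Npas4, Fosb and Fos are high after PTZ in both cell types (3.76 to 5.39), whereas Nr4a1, Egr1 and Arc after fear conditioning reach 2.85, 1.51 and 1.49.

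Against fear conditioning in the same cell type, no activity gene passed the edgeR test of the difference. The log2 response to PTZ was 4.82 against 2.22 after CFC for Npas4 (difference 2.60 ± 0.68), 4.43 against 1.60 for Fosb (2.83 ± 0.82), 3.93 against 1.53 for Fos (2.39 ± 0.70), and 3.47 against 0.47 for Ptgs2 (3.00 ± 0.93). None of these differences passed (each edgeR adjusted p = 0.295). Nr4a1 had responses of 2.71 to PTZ and 2.85 to CFC (difference -0.14 ± 0.70), Egr1 of 1.50 and 1.51, and Arc of 1.34 and 1.49. These PTZ values rest on the high saline 1: without it, in the fit of batch 1 alone, they were 4.04, 3.06 and 2.26, and the difference for Nr4a1 was 1.13 (edgeR adjusted p = 0.270). Nr4a1 stood at 94.2 to 126 CPM after PTZ and at 58.0 to 65.2 CPM after CFC, both above their controls. The test called 1 of 14258 genes (0.00701%, edgeR), Fut10, a fucosyltransferase gene, with a smaller response to PTZ (difference -3.17 ± 0.47, edgeR adjusted p = 0.0258). The call was lost with limma voom (adjusted p = 0.0521) and in most fits with 1 library left out, where the edgeR adjusted p ran from 0.0131 (without home cage 3) to 0.18 (without saline 4). In all, 1967 genes had an unadjusted p under 0.05 where 712.9 would be expected. All 80 ribosomal proteins had a positive difference (median 0.82), with medians of 0.07 after PTZ and -0.74 after CFC, and 0 of them were called. The 2 experiments were in separate batches, and batch and stimulus cannot be told apart. The PV saline libraries serve both of these comparisons of responses.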

How the data were processed

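Ribosome-bound mRNA was sequenced, and the submitters' processing notes list STAR 2.5.2a, cutadapt 1.18, DESeq2, HTSeq 0.11.0 and both mm10 and GRCm39, without saying which table each made or whether counting used strand. In the table deposited by the authors for batch 1 the values are estimated counts (expected counts) per gene, 11.3% of them not whole, so they were rounded. The deposited tables of batch 2, which lists 11808 genes, and batch 3, with 53465, hold whole counts. In 27 rows the gene name had become a date; these stayed in the fit and none is named. The 7 PV libraries of batch 1 were fitted alone with edgeR 4.0.16 (filterByExpr, TMM, robust quasi-likelihood F test; R 4.3.3), adjusted by Benjamini-Hochberg over 13598 genes; the biological coefficient of variation was 0.314. DESeq2 1.42.0 and limma 3.58.1 voom were alternatives, as were no filter, other scaling, a sex term, a replicate block and each library left out. Differences of responses were contrasts in edgeR fits joining batch 1 with all libraries of batch 2 (4933110 to 18413104 counts per library) or batch 3 (10096035 to 27282912). The 2 PV saline libraries of batch 2 and the 3 PV Nr4a1 knockout libraries of batch 3 entered the estimate of the spread but not the contrasts. CPM are TMM scaled unless said otherwise; errors are SE. The fits were tested on simulated data. With 4 libraries against 3 an exact two-sided permutation test cannot go below p = 0.0571, so none is given. No per-sample column was left unmapped.

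The comparison, its 22 gene lists and their 588 genes (559 tested) were chosen with earlier results of these data known. Named genes are Nr4a1, Fos, Pvalb, Sst, all called genes, those called by both other tools, the members of each list with the smallest p (6 in the activity lists, 2 elsewhere) and 5 per direction in each difference of responses; other genes were chosen after their values were seen. Some list members are not reported here. Promoters and gene spans are from RefSeq (GRCm38.p6).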

Additional observations from a re-analysis of the deposited data

Results flagged for a closer look

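In the 4 PTZ libraries 3 glial genes were far higher in PTZ 2 than in the other 3 by a gap test: Gfap at 40.3 CPM, Gjb6 at 35.4 CPM and Mobp at 144 CPM. Rpl36a, a ribosomal protein gene, was likewise far higher in PTZ 4, at 23.4 CPM. These 4 came from 79 groups of 4 examined, and chance flags about 1 group in 20.

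For Fut10 the PTZ response minus the CFC response in PV cells was -3.17 on the log2 scale (edgeR adjusted p = 0.0258). The difference did not pass with limma voom (adjusted p = 0.0521), with only the 4 groups of the contrast (edgeR adjusted p = 0.130), with a replicate block (edgeR adjusted p = 0.256), or in 9 of 13 edgeR fits with 1 library left out, and batch and stimulus cannot be told apart. It had 7.79, 4.69, 8.87 and 8.81 CPM after PTZ, against 11.2, 11.5 and 15.2 CPM after saline, and 8.75, 10.4 and 8.82 CPM after CFC, against 2.02, 0.901 and 2.33 CPM in the home cage. The level after CFC thus lay close to that after PTZ, and the home cage libraries were the low ones.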

How the results depend on the processing

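The 4 calls after PTZ stood at 4 with DESeq2 size factors, without rounding, without the robust option and with limma voom, and at 3 without a filter and with a mean of at least 50 counts. DESeq2 called 211, the sex term left 0, and leaving out PTZ 1 and 2 together, chosen after the data were seen, left 0. With a replicate block 2 were called, Fosb and Fos; same-numbered libraries had correlations of -0.23, 0.18 and 0.09, so the numbers were not taken as pairs. Single libraries left out gave 0 to 14. Without PTZ 1 and 2, 1856 genes had PTZ above every control and 1749 below, where 2 libraries meet 3. The 0 genes that differed between PV and SST responses became 1 with DESeq2 and 1 with a replicate block, and 0 to 1 with single libraries left out. The 1 gene that differed between PTZ and CFC became 41 with DESeq2, 0 with limma voom, 0 with only the 4 groups of the contrast, 0 with a replicate block, and 0 to 9 with single libraries left out; DESeq2 size factors moved the median difference of all genes to 0.10. The cause of these changes was not tested. No result changed sign past the threshold. Leaving out PTZ 1 and 2 turned the median of VIP and other interneuron markers to -0.11; medians of lists close to 0 (SST markers, sodium and calcium channels, ribosomal proteins, neuropeptides, perineuronal net genes) changed sign when some single library was left out. With 3 or 4 libraries a group and a coefficient of variation of 0.314, changes could be missed at any level. Egr1 (mean of all libraries 296 CPM) and Syt2 (434 CPM) missed the edgeR threshold, while Btg2 (24.4 CPM) passed it. What set the missed calls was not tested.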

Other observations

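Some genes outside all lists, chosen here after their values were seen, had groups that did not overlap and missed the edgeR threshold. Thrap3 and Bclaf1 encode related nuclear proteins with roles in splicing and transcription. Thrap3 had 3771, 3190, 2071 and 2135 CPM in PTZ libraries and 483, 816 and 1110 CPM in saline libraries (log2 1.80 ± 0.35, edgeR adjusted p = 0.176). Bclaf1 had 10393, 11421, 6024 and 5266 CPM after PTZ and 1693, 2552 and 3113 CPM after saline (log2 1.75 ± 0.36, edgeR adjusted p = 0.207). Both were highest in PTZ 1 and PTZ 2 and lowest in saline 1. Their level differed widely between the deposited tables: unscaled Bclaf1 was at 82.1 to 110 CPM in PV home cage libraries of batch 3, at 433 to 1438 CPM in PV saline libraries of batch 2, and at 1669 to 3079 CPM in PV saline libraries of batch 1.

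Dock8, a guanine nucleotide exchange factor of immune cells, had 25.1, 36.9, 26.8 and 24.2 CPM after PTZ and 8.02, 9.67 and 11 CPM after saline (log2 1.56 ± 0.24, edgeR adjusted p = 0.127). Inpp5d, a lipid phosphatase of microglia and blood cells, had 14.6, 19.9, 17.3 and 28.1 CPM after PTZ and 7.44, 4.98 and 4.74 CPM after saline. Unlike the microglia markers, Dock8 was not highest in PTZ 4. Notch2, a receptor of the Notch pathway, had 47.2, 66.7, 61.6 and 43.2 CPM after PTZ and 21.1, 21 and 29.4 CPM after saline, a log2 value of 1.20. Txnip, an arrestin-like protein that limits glucose uptake, had 10.8, 15.1, 10.6 and 17.9 CPM after PTZ and 5.85, 3.24 and 4.68 CPM after saline. For all 4 genes every PTZ library was above every control.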
